A study of Homo sapiens with 6 samples.

Results

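RNA that had not been exposed to dimethyl sulfate (DMS) was reverse transcribed in 2 buffers that differed in their monovalent cation, and RT stops were compared nucleotide by nucleotide on 2759 transcripts of 2755 genes. A transcript entered when its listed stops, summed and divided by its last listed position, came to at least 1 per nucleotide in both libraries. These were 2759 of 14647 transcripts listed in either library, and of 15739 in all 6 libraries of the series. Poly(A)-selected RNA came from untreated U2OS cells, a human osteosarcoma line of mesenchymal origin. It was cut into short fragments and copied by reverse transcriptase (RT) in 150 mM of the cation, and only cDNAs of stalled extension were cut from a gel, so that fully copied fragments were not measured. In the other 4 libraries RNA was refolded and exposed to DMS in 150 mM K+ or Li+ in vitro, or was taken from control cells or cells starved for 2 h that had been exposed to 8% DMS for 5 min, with RT in 150 mM K+ by the labels in all 4. There was 1 library for each condition and no replicate. No p-value was calculated, and the intervals given are for counting error, or for medians the variation between regions.

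The sample labels and the deposited files contradict each other on the cation. The library labelled Na+ was deposited in a file named for K+, and the library labelled K+ in a file named for Na+. For RT, the methods of the study give K+ and Li+ as the cations, while its results text names K+ and Na+ for this pair. In that text, the stops described as favoured by K+ were mostly at G. By the labels used here, the set of stops mostly at G is the one higher with Na+. Libraries are named here by their labels, and by the file names every direction below reads the other way. Which of these is right was not tested.

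An RNA G-quadruplex (rG4) is a stack of planar guanine quartets built from 4 runs of guanines in 1 strand. Monovalent cations sit between the quartets, and K+ stabilises the fold better than Na+ or Li+. RT moves along the template from its 3′ side and tends to halt at the first guanines of a folded rG4, so that rG4s appear as stops that depend on the cation. Runs of at least 3 guanines give the more stable folds, and runs of 2 give weaker ones.

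The strength of a stop is its RT-stop enrichment score (E), the stop count at a nucleotide over the mean count of its transcript. A strong stop had an E of at least 10. A cation-sensitive stop was strong in 1 library with an E at least 2-fold that of the other library. Cation-sensitive guanines no more than 30 nt apart were merged into 1 G region, represented by its strongest stop. Where no direction is given, cation-sensitive guanines and G regions below are those higher in the library labelled Na+. Nucleotides with fewer than 3 stops are not listed and were counted as 0 for the calls. A fold against such a nucleotide was calculated with 3 stops and is a lower bound.

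The sequences below end at the strongest stop of a G region, and they are shown because they include the largest E ratios and transcripts with many G regions. Each is 30 nt, 5′ to 3′, from GENCODE release 44 on GRCh37, with runs of at least 2 guanines in capitals. CHD4, which encodes a chromatin-remodelling ATPase, held its site in coding sequence (chr12:6711146-6711175, minus strand, exon 4 of 40). The sites of TMSB4X (thymosin beta 4, chrX:12995159-12995188, plus strand, exon 3 of 3) and NUCKS1 (a nuclear DNA-binding protein, chr1:205686752-205686781, minus strand, exon 7 of 7) were in 3′ untranslated regions (UTRs), as was that of AHNAK (a giant scaffold protein, chr11:62283794-62283823, minus strand, exon 5 of 5). The sites of NORAD (chr20:34636342-34636371, minus strand) and MALAT1 (chr11:65271734-65271763, plus strand) were in noncoding RNAs. The last sequence, from KCMF1 (an E3 ubiquitin ligase, chr2:85273229-85273258, plus strand, exon 5 of 7, coding sequence), was also called but holds no quadruplex motif.
CHD4: ccaagcGGaaGGaGGaGGaGGaGGaGGaGG
TMSB4X: GGaagaaguGGGGuGGaagaaguGGGGuGG
NUCKS1: uuuuaccuuguaGGGaGGGuGGGcaauGGG
AHNAK: uuuguuaguaaGGGuGGGuGGGGugauGGG
NORAD: aauuguugaaccaccuGGGaGGuGGGaGGG
MALAT1: gaauuuGGaGGGauGGGaGGaGGGGGuGGG
KCMF1: ugaaucgaguGGuguucgacauguacguag

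At the CHD4 site, 1077 stops were counted in the library labelled Na+ and 3 in the library labelled K+, an E of 166 against 0.451. The ratio was 368-fold (95% exact counting interval 126 to 1789). Among regions with at least 100 counts this was the largest value, with regions not listed in the library labelled K+ entered at their lower bound. At the TMSB4X site the counts were 5152 and 14 and the ratio was 325-fold (194 to 596). Both sites had 4 or more runs of 2 guanines but not 4 runs of 3. The NUCKS1 site, with 4 runs of 3, gave 1008 and 6 stops and a 166-fold ratio (76.2 to 454). SSR3, NAXE, U2AF1, ACTR2, NASP and NCAPH completed the 10 regions with the largest ratios, and 3 of them, ACTR2, NASP and NCAPH, were not listed in the library labelled K+. In AHNAK the counts were 1103 and 16, and its E of 504 was the highest of all G regions. NORAD, a noncoding RNA that binds Pumilio proteins, had 498 and 3 stops at its site, a 174-fold ratio (59.1 to 846). In the 6 regions whose sequences are shown and that were listed in both libraries, the interval of the ratio lay above 2-fold.

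The libraries were of similar depth. The library labelled Na+ listed 33507714 stops at 4204139 nucleotides and that labelled K+ 35371061 at 4442220. Of these stops, 2.77093e+07 and 2.9169e+07 were on the 2759 transcripts. The median transcript had 2.62 and 2.75 stops per nucleotide. The mean of a transcript, from which E is taken, differed by a median log2 ratio of -0.08 (quartiles -0.11 to -0.03). At the threshold, the smaller of a transcript's means was 1 for the last transcript inside and 0.9995 for the first outside. Of the fixed cell type markers, 6 of 8 mesenchymal genes reached the minimum, VIM, LGALS1 and SPARC among them, and 0 of 4 epithelial and 0 of 4 blood genes did. Across nucleotides with at least 5 stops in both libraries, log2 E correlated with a median Pearson r of 0.40 (quartiles 0.27 to 0.60) over 2293 transcripts with at least 100 such nucleotides, as a description of nucleotides that share a library and a transcript.

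Cation-sensitive strong stops lay mostly in 1 direction and at G. Strong stops numbered 9431 in the library labelled Na+ and 6829 in the library labelled K+, of which 3852 were strong in both. Of the 12408 strong in either, 3770 (30.4%) had an E at least 2-fold higher under the label Na+ and 946 (7.62%) under the label K+. Guanines made up 3107 of the 3770 (82.4%, 95% Wilson interval 81.2 to 83.6) but 205 of the 946 (21.7%, 19.2 to 24.4). Among strong stops at G, 58.7% were higher in the library labelled Na+ and 3.87% in the library labelled K+. For A, C and U the shares were 8.46%, 10.2% and 10.3% in the first direction and 10.5%, 8.88% and 11.5% in the second.

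Counting error separated the 2 directions further. When the lower limit of the exact interval of the count ratio had to lie at 2-fold or above, 2866 stops were left in the direction of the library labelled Na+, of which 98.1% were at G, and 71 in the direction of the library labelled K+, of which 21.1% were at G. The median count in the stronger library was 70 at the 3107 stops at G of the first direction and 15 at the 205 of the second. Of the 3107, 1124 were not listed in the library labelled K+.

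**Figure D1:**
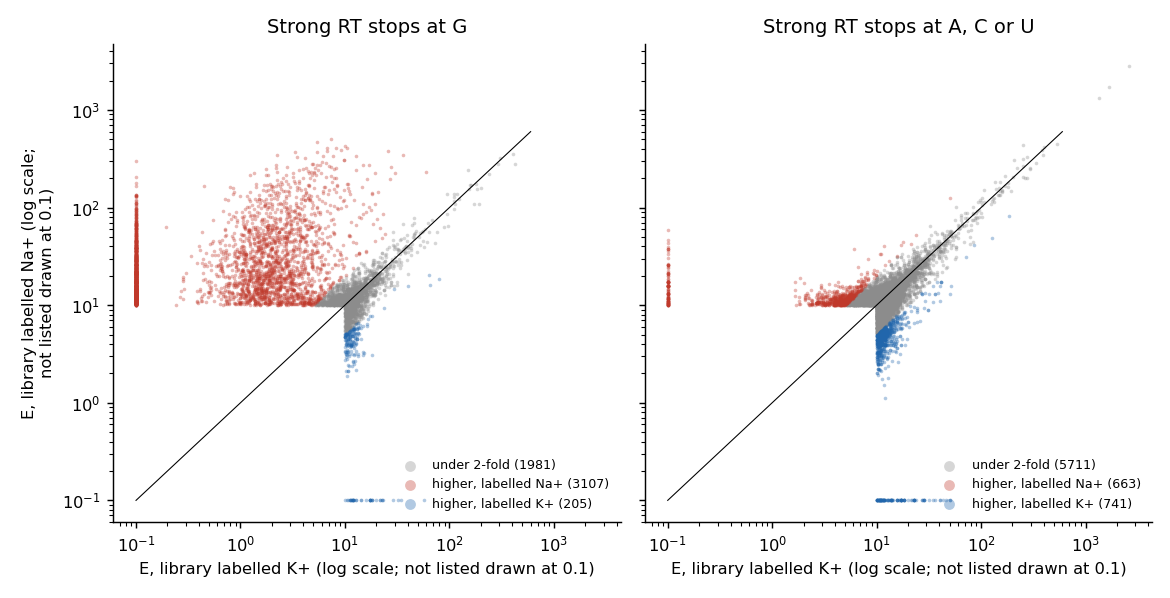
E of each strong stop in the library labelled K+ (x axis) and the library labelled Na+ (y axis), both on log scales, for stops at G (left) and at A, C or U (right), with the line of equal E. At G, 3107 stops lie at least 2-fold above the line and 205 below, against 663 and 741 at the other bases.

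The share of stops at G that were higher in the library labelled Na+ rose with their strength. It was 42.9% for an E of 10 to 20 in the stronger library (3326 stops), 81.9% for 20 to 50 (1284 stops) and 92.2% for 50 or more (683 stops). Over the same steps the share of stops at A that were higher in the library labelled Na+ was 9.01%, 4.02% and 1.82%, that at C 10.3%, 11.5% and 1.96%, and that at U 11.03%, 5.26% and 3.23%. At lower E the directions were closer to even. For an E of 2 to 5, 19.2% of listed guanines were 2-fold or more higher under the label Na+ and 21.0% under the label K+, and for an E of 5 to 10 these shares were 20.1% and 16.0%. The median log2 ratio at G, library labelled Na+ over K+, was 0.28 for an E of 10 to 20, 3.46 for 20 to 50 and 4.94 for 50 or more.

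**Figure D2:**
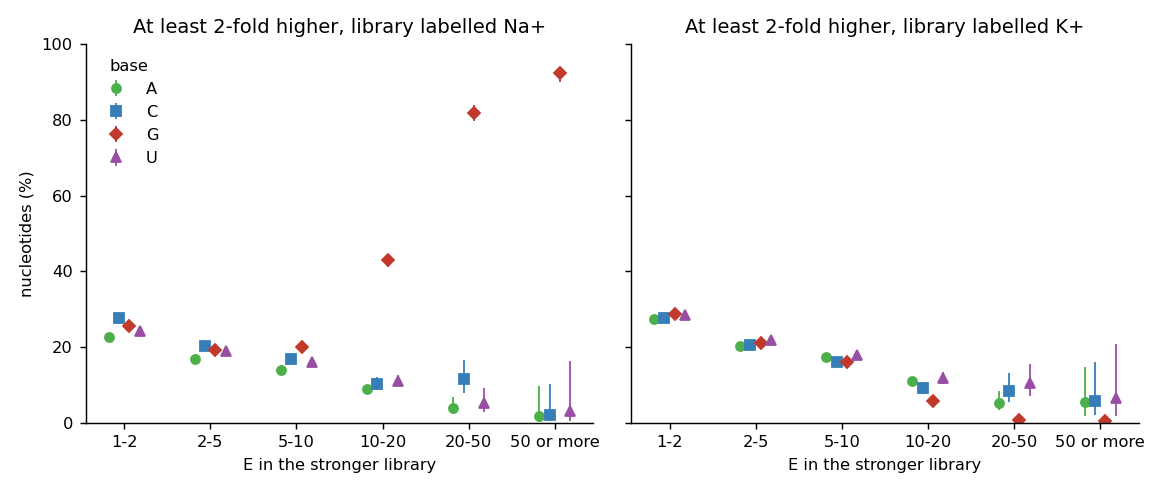
Share of nucleotides (%, y axis) higher by 2-fold or more under the label Na+ (left) or K+ (right), by E in the stronger library (x axis) and by base, with 95% Wilson intervals. Guanines lie slightly above the other bases on the left for an E of 5 to 10 (20.1%) and far above them from 10 on, reaching 92.2% on the left and 0.586% on the right.

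The 3107 stops formed 1584 G regions on 972 transcripts (35.2% of 2759, interval 33.5 to 37.0). In the opposite direction 178 regions were called on 112 transcripts (4.06%), and 14 regions on 13 transcripts with the counting interval above 2-fold, against 1401 regions on 896 transcripts. The median E at the strongest stop was 27.0 (25.3 to 28.6) in the library labelled Na+ and 1.32 (1.17 to 1.43) in the library labelled K+. These medians describe regions chosen by that difference. The median fold was 17.3 (16.3 to 18.5), with 573 regions entered at their lower bound, and 70.6% of regions reached 10-fold and 2.53% reached 100-fold. Regions in the other direction had a median fold of 2.54, a median E of 11.7 against 4.37, with 21 regions entered at their lower bound, and the highest value of the 178 was 8.38-fold.

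Most G regions were narrow. A single stop made up 49.9% of them, 2 stops 25.6%, 3 stops 11.6% and 4 or more 12.9%, with at most 9, and regions of at least 2 stops spanned a median of 4 nt (quartiles 2 to 11). Of 2135 pairs of successive cation-sensitive guanines on a transcript, 44.7% were direct neighbours, 1.41% were 2 nt apart, 4.68% were 3 nt apart and 20.6% were 4 to 30 nt apart. In the other direction 0 of 93 pairs were direct neighbours, which allows a share of up to 3.97%.

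Regions of the same transcript were far apart. Of the 972 transcripts, 629 had 1 region, 192 had 2, 92 had 3 and 59 had 4 or more, so that 955 of the 1584 regions shared their transcript with another. Neighbouring regions were a median of 485 nt apart (interval 437 to 545, 612 distances, quartiles 154 to 1107), with 16.3% within 100 nt. The merging itself sets a minimum of 31 nt. Strong guanine stops of the library labelled Na+ that were under 2-fold, merged in the same way, formed 795 regions on 401 transcripts with a median distance of 120 nt (108 to 140, 394 distances). Within a transcript the regions were of unequal strength. In 343 transcripts with at least 2 regions, the E of the strongest was a median of 2.11 times that of the next (quartiles 1.35 to 3.79).

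**Figure D3:**
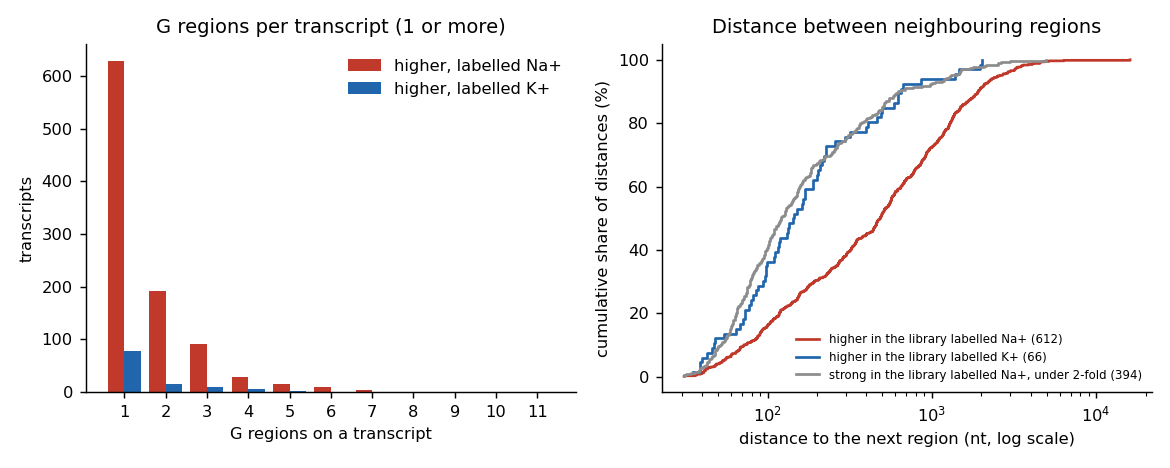
Left, number of transcripts (y axis) with each number of G regions (x axis) in either direction. Right, cumulative share (%) of distances between neighbouring regions of a transcript (nt, log scale), where the median is 485 nt for regions higher in the library labelled Na+, 143.5 nt for those higher in the library labelled K+ and 120 nt for strong guanine stops under 2-fold.

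Cation-sensitive guanine stops made up a small part of all stops but a large part of those on some transcripts. They held 1.88% of all stops on the 2759 transcripts in the library labelled Na+, and the same nucleotides held 0.0763% in the library labelled K+. On the 972 transcripts their share had a median of 3.21% (quartiles 1.22 to 8.10), was at least 5% on 368 and at least 10% on 193. Guanines took a larger share of the stops in the library labelled Na+ than in the library labelled K+ on 1919 of 2759 transcripts. Over all 2759 the median difference was 0.630 percentage points (0.557 to 0.687), and 0.277 (0.236 to 0.315) with the called guanines left out. Total stops per transcript differed by a median log2 ratio of -0.04 on transcripts with a G region and of -0.11 on those without. The nucleotide with most stops was a guanine on 1525 transcripts (55.3%) in the library labelled Na+ and on 763 (27.7%) in the library labelled K+.

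TUBA3C, an alpha-tubulin gene of which near-identical copies exist, had the largest share. Its single region (969 stops against 15) held 48.9% of its stops. ERF, a transcriptional repressor of the ETS family, followed with 44.3% in 7 regions. CADM4, a cell adhesion molecule, had 41.9% in 5 regions, PFDN6, a subunit of the prefoldin chaperone, 41.0% in 1, and DUSP14, a phosphatase, 40.8% in 1. In ERF 65.8% of all stops were at G in the library labelled Na+ and 33.6% in the library labelled K+, and its mean was 2.69 stops per nucleotide against 1.60.

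Among the transcripts with most G regions were those of KCMF1 (11), MALAT1 (9), ERF, BRD2 and NEAT1 (7 each), and AHNAK, LMO4, LMNB2 and ARF3 (6 each). MALAT1 and NEAT1 are long noncoding RNAs of the nucleus, BRD2 binds acetylated histones, LMO4 is a LIM domain protein, LMNB2 encodes lamin B2 and ARF3 a small GTPase. The 9 MALAT1 regions had 59 to 420 stops in the library labelled Na+ and a median distance of 558 nt (184 to 1495). Those of NEAT1 had 86 to 862 stops and lay 41 to 1017 nt apart. In ERF, 6 of 7 regions were in the 3′ UTR, a median of 115 nt apart, and 7 of 7 had a motif of 4 guanine runs.

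Along MALAT1 the strongest regions lay at nucleotides 3798 (420 stops against 10), 6531 (387 against 4, the sequence shown above) and 4143 (351 against 6). At nucleotides 6347, 7397, 7716 and 8157 there were 59, 95, 156 and 94 stops in the library labelled Na+, and the same guanines were not listed in that labelled K+. The smallest ratio was at nucleotide 3123, with 63 against 26 stops. Cation-sensitive guanines were thus spread between nucleotides 3123 and 8157 of this RNA, with E from 13.7 to 97.3.

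In ARF3, LMNB2 and BRD2 most regions were in the 3′ UTR. In ARF3 these were 5 of 6, led by 461 stops against 6, and in LMNB2 5 of 6, led by 410 stops at a guanine not listed in the library labelled K+. In BRD2 4 of 7 were in the 3′ UTR, led by 530 against 7, and 1 was in coding sequence with 211 against not listed.

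KCMF1 and LMO4 differed from the other leading transcripts. The KCMF1 regions had 11 to 41 stops, 2 of the 10 with a sequence window held a motif, and 6 of 11 kept a counting interval above 2-fold. It also had 5 of the regions higher in the library labelled K+. Of its stops in the library labelled K+, the middle 90% lay between nucleotides 407 and 1784 of 6225, and the transcript mean used for E was 0.585 of the listed mean. For LMO4 this ratio was 0.505, 1 of 5 windows held a motif, and 6 regions were called in each direction. A mean under 0.8 of the listed mean was found for 112 of 2759 transcripts, which held 98 of the 1584 regions and 71 of the 178 in the other direction. Ranked only over regions with the counting interval above 2-fold, an order chosen after seeing the data, MALAT1 led with 8, followed by ERF and NEAT1 with 7 and by BRD2, LMNB2, ARF3, FADS2, PLEC and FAM168B with 6, among others.

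**Figure D4:**
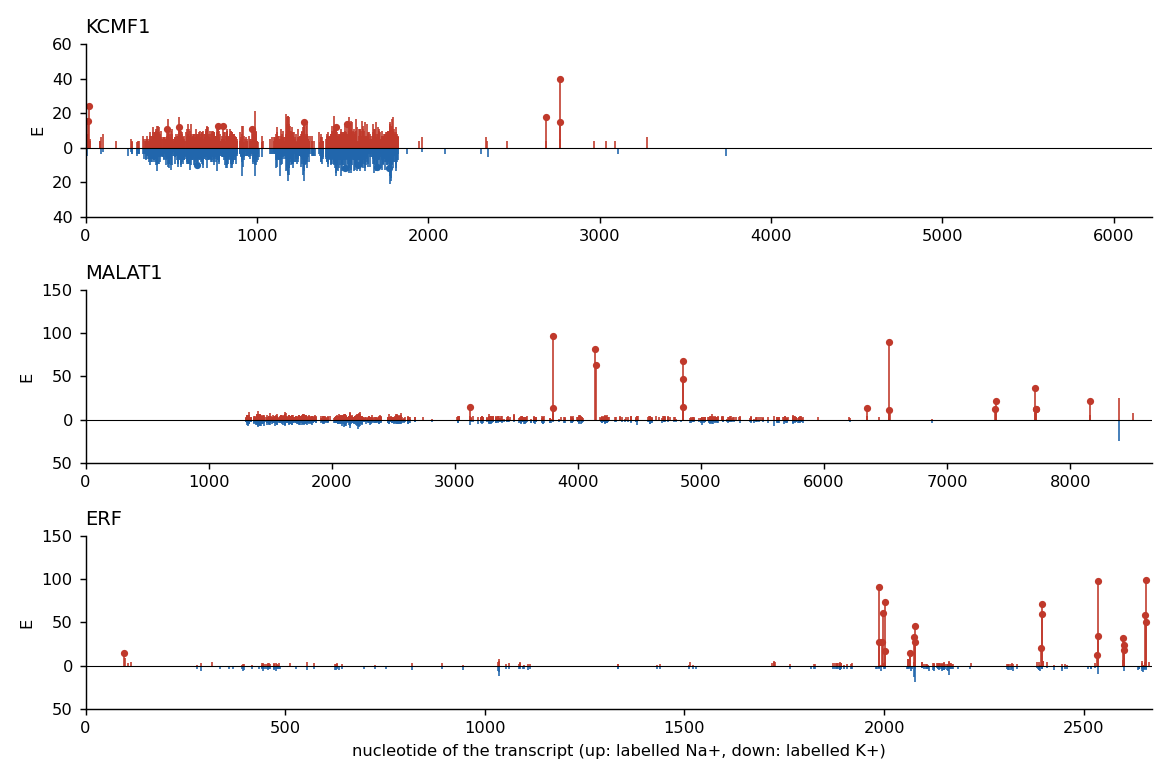
E (y axis) along KCMF1, MALAT1 and ERF (x axis, nucleotide of the transcript), upward for the library labelled Na+ and downward for the library labelled K+, for nucleotides with an E of at least 3 in either. Points mark cation-sensitive stops at G, which reach an E of 97.3 in MALAT1, 99.2 in ERF and 39.9 in KCMF1, where the middle 90% of stops in the library labelled K+ lie between nucleotides 407 and 1784.

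Length here and below is the last listed position of a transcript. Per length, the highest counts came from transcripts listed over short stretches or unevenly covered. Among transcripts with at least 3 regions, COX16, a cytochrome oxidase assembly factor, had 10.6 regions per kb over 283 nt and TXNDC5, a disulfide isomerase, 10.2 over 295 nt, both with 0 regions left under the counting interval and means of 0.184 and 0.157 of the listed mean. DYNLL2, a dynein light chain, had 3.36 per kb with 5 of 5 left, and MRPL24, a mitochondrial ribosomal protein, 3.30 with 3 of 3 left. ERP44, an endoplasmic reticulum chaperone, had 2.69 per kb with 0 of 5 left and a mean of 0.455 of the listed mean. Over all 2759 transcripts there were 0.248 regions per kb, and 0.0278 in the other direction.

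In the direction of the library labelled K+ only 2 regions had at least 100 counts. In CADM4 the stop had 121 counts under the label K+ and 43 under the label Na+ (4.00-fold, 2.80 to 5.80), and in CTSZ, which encodes the protease cathepsin Z, 190 and 88 (3.12-fold, 2.41 to 4.07). At both sites the adjacent guanine on the 3′ side was called in the opposite direction, with 381 against 39 stops in CADM4 and 1632 against 76 in CTSZ. The strongest stop of the same guanine tract thus lay 1 nt further 5′ in the library labelled K+. Of the 205 guanine stops in this direction, 22 were within 5 nt of one called in the other. The sequences up to these stops are shown because their last base lies inside a guanine run that continues on the 3′ side, at chr19:44126566-44126595 for CADM4 and chr20:57570297-57570326 for CTSZ, both on the minus strand and in the 3′ UTR.
CADM4: uuguacGGGGuGGGGaGGGGaauGGGGaGG
CTSZ: uuagaaucaaGGGuGGGGGaGGGaGGGaGG

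Other regions in this direction had under 100 counts. The transcripts with most of them were LMO4 (6), ALDH7A1 and KCMF1 (5 each), and FUNDC2, NDUFA11, HBS1L, ERP44, CD59 and BMS1 (4 each). Their regions had 8 to 34 counts. A further 10 transcripts had 3 each, among them MYCBP with 5 to 7 counts a region.

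Guanine runs lay on the 5′ side of the stop. Motifs were searched on the transcript strand in the 45 nt that end at the stop, as 4 runs of at least 3 guanines with loops of 1 to 7 nt, or, without such a match, 4 runs of at least 2 with loops of 1 to 9 nt. Of 1447 G regions with a window, 19.9% held the motif with runs of 3 (interval 17.9 to 22.0), 63.9% that with runs of 2 (61.4 to 66.4) and 16.2% none. Among all 622591 listed guanines of the library labelled Na+ with a window these shares were 0.415%, 10.9% and 88.7%. Strong guanine stops under 2-fold had 1.26%, 10.8% and 87.9%, and regions higher in the library labelled K+ 2.47%, 6.79% and 90.7%. A run of at least 3 guanines ended at or covered the stop in 72.3% of the 1447 and in 14.3% of all listed guanines. Read from the motif, 29.5% of 2584 listed guanines after runs of 3 were called, 2.65% of 67949 after runs of 2 and 0.0587% of 552058 without a motif.

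Regions with runs of 3 were the stronger ones. Their median E was 57.1 (47.0 to 67.7), against 27.7 (25.6 to 29.3) with runs of 2 and 13.4 (12.7 to 15.1) without a motif. The median fold was 23.9 (22.0 to 28.6), 18.9 (17.3 to 20.3) and 4.13 (3.64 to 5.12) in the same order. Quartiles of the fold were 13.3 to 47.5, 10.3 to 34.9 and 2.52 to 13.3, with 31.2%, 38.4% and 18.4% of the folds entered as lower bounds. A single stop formed 22.6%, 49.9% and 76.5% of the regions.

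The mean E around the 1449 regions with a full window of 60 nt on either side fell within a few nucleotides. It was 49.0 at the strongest stop of the library labelled Na+, 10.9 at the nucleotide on its 5′ side and 8.23 on its 3′ side, and 2.04, 1.57 and 1.67 in the library labelled K+. Guanine made up 93.0% of the nucleotides directly 5′ and 31.6% of those directly 3′ of the stop. In the 30 nt beyond the region on the 5′ side the mean E was 0.857 in the library labelled Na+ and 0.957 in the library labelled K+, and on the 3′ side 1.08 and 1.02. The log2 ratio of the 5′ to the 3′ side was -0.33 and -0.10, a difference of -0.23 (median over regions -0.23, -0.29 to -0.19, below 0 in 820 of 1318). Around strong guanine stops under 2-fold this difference was -0.030. Around regions higher in the library labelled K+ it was -0.15 (median over regions -0.005, -0.087 to 0.060). For the cation-sensitive regions it was -0.047 when stops were merged only within 10 nt, which leaves called stops of the same tract in the flanks.

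**Figure D5:**
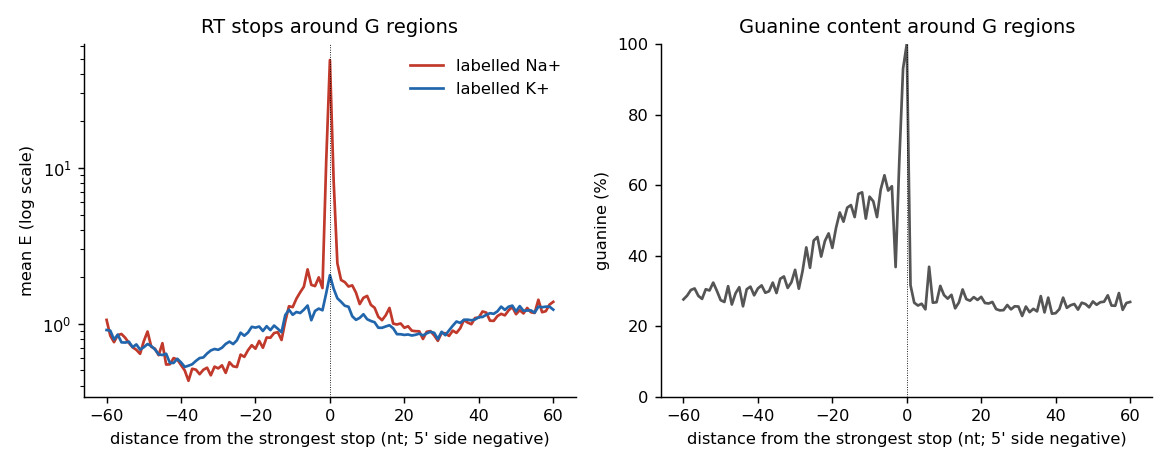
Left, mean E (log scale) by distance from the strongest stop of a G region (nt, 5′ side negative) in both libraries. Right, share of guanine (%) at the same distances, which is 93.0% directly 5′ of the stop, 62.8% at 6 nt on the 5′ side and 31.6% directly 3′ of it.

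Location and composition of the transcript went with the presence of regions. Of 1499 regions with an annotation, 12.1% were in 5′ UTRs (10.6 to 13.9), 32.6% in coding sequence, 53.4% in 3′ UTRs and 1.87% in noncoding RNAs, against 3.39%, 57.2%, 38.5% and 0.884% of 168591 listed nucleotides taken as 1 in 20. In 3′ UTRs lay also 45.9% (42.4 to 49.5) of the strong guanine stops under 2-fold and 51.2% (43.7 to 58.7) of the regions higher in the library labelled K+, and in 5′ UTRs 6.37% (4.84 to 8.35) and 3.01% (1.29 to 6.86). With each transcript divided into 10 equal parts, the first held 14.6% of regions and 5.63% of listed nucleotides, and the last 15.6% and 10.1%. The share of transcripts with a region was 19.0% in the shortest of 4 equal groups and 50.9% in the longest, while regions per kb were 0.291 and 0.222. By guanine content, it was 23.9% in the lowest group and 51.0% in the highest, with 0.114 and 0.501 regions per kb. By stops per nucleotide, it was 41.0% in the group with fewest and 25.4% in that with most, with 0.237 and 0.233 regions per kb. In the other direction regions per kb were 0.0473 and 0.00447 in these same 2 groups.

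The abundant mRNAs of beta-actin, gamma-actin and vimentin had none. ACTB, ACTG1 and VIM, with 56.0, 27.4 and 55.6 stops per nucleotide in the library labelled Na+, had 0 regions. Among tubulins, TUBA1B had 2 regions, TUBA1C, TUBB and TUBB4B 1 each, and TUBB3 and TUBB6 0. The TUBB region, in its 3′ UTR, had 2690 stops against 113 (24.1-fold, 19.9 to 29.3). Of 84 cytosolic ribosomal protein mRNAs, which were short (median 713.5 nt) and deeply covered, 7 had a region (8.33%, beside 35.2% of all transcripts), or 0.0944 per kb beside 0.248 over all.

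Of 16 mRNAs that encode helicases or other proteins known to bind G-quadruplexes, 8 had a region (50.0%, beside 35.2% of all transcripts and 50.9% of the longest of 4 equal groups by length), or 0.436 per kb, beside 0.248 over all and 0.222 in that group. Among these were TAF15, an RNA-binding protein, with 5 regions, nucleolin (NCL), HNRNPA2B1 and DDX17 with 3 each, and EWSR1, G3BP1 and HNRNPH1 with 1 each. The strongest TAF15 site had 1278 stops against 16 (60.4-fold, 37.0 to 106) in the 3′ UTR, and 51.1% of TAF15 stops were at G in the library labelled Na+ and 24.8% in the library labelled K+. In HNRNPA2B1, which encodes a splicing factor, all 3 regions were in coding sequence, with 399, 314 and 393 stops against 8, 51 and 81. In NCL the 3 sites were in coding sequence, the strongest with 1389 against 24 stops (59.4-fold, 39.7 to 93.0). The rG4 helicase mRNAs DHX36, DHX9, DDX3X, DDX5 and DDX21 had 0 regions, as had CNBP, HNRNPA1 and HNRNPF.

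Of 6 mRNAs that the study quantified after rG4 pull-down, APP, APH1A, HIRA, LMNB1, CDKN1B and ACTB, 5 reached the minimum, HIRA being below it, and 4 had a region (beside 35.2% of all transcripts), or 0.382 per kb beside 0.248 over all. The study took its rG4 candidates from its own analysis of this series, so this count is no independent evidence. After actinomycin D it reports longer half-lives under stress for APP, APH1A, HIRA and LMNB1. Beta-actin, whose mRNA had no region here, was a control RNA in that experiment. APP, the amyloid precursor, had 1 region in its 3′ UTR with 2194 stops against 64 (31.7-fold, 24.7 to 41.3). APH1A, a gamma-secretase subunit, had 2 regions, the stronger with 468 against 8 (48.5-fold, 24.4 to 113). CDKN1B, the cell-cycle inhibitor p27, had 253 against 6 (43.4-fold, 19.7 to 119). At the LMNB1 (lamin B1) region 551 and 75 stops gave 7.26-fold (5.70 to 9.37), with an E of 15.1 still in the library labelled K+. The sites of APP, APH1A and CDKN1B, shown because the study names these genes, were in 3′ UTRs at chr21:27253245-27253274 (minus strand), chr1:150237904-150237933 (minus) and chr12:12874245-12874274 (plus) in the order of the lines.
APP: uaagcacuuuuacGGGGcGGGuGGGGaGGG
APH1A: aguuuuuaauuGGGGuguGGGaGGGGcGGG
CDKN1B: uaaacuuuGGGGaaGGGaGGGcaGGGuGGG

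All 3 end in a run of 3 guanines and hold 4 runs of at least 3. Of 6 mRNAs with rG4s known from the literature that reached the minimum, 5 had a region (beside 35.2% of all transcripts), or 0.304 per kb beside 0.248 over all (median length 4158.5 nt), namely FXR1 with 4 and ADAM10, CCND3, NRAS and TGFB2 with 1 each, and CTSB had 0. Of the same 6, 2 also had regions higher in the library labelled K+ (beside 4.06% of all transcripts), FXR1 with 3 and CCND3 with 1. FXR1 is unevenly covered, with 3.89 listed stops per nucleotide in the library labelled Na+ and a mean for E of 1.49. Its strongest region had 407 against 8 stops, and the other 3 had 15 to 19 stops in the library labelled Na+ and 7 to 9 in that labelled K+.

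At the same nucleotides the DMS libraries, in which some methylated bases add stops, gave a readout that the selection had not used. According to the study, DMS methylates accessible guanines at N7, which lowers stalling at an rG4, and guanines within quartets are protected. On transcripts past the minimum in each, the strongest stop of G regions had an E of at least 10 in 11.7% of 1049 regions for RNA folded in K+ in vitro (9.92 to 13.8), 4.16% of 1490 for Li+ (3.26 to 5.30), 1.53% of 652 in unstressed cells (0.835 to 2.80) and 9.29% of 560 in starved cells (7.15 to 12). The median E was 2.09, 1.76, 0.391 and 1.84. For strong guanine stops under 2-fold the shares were 14.4%, 14.6%, 10.7% and 24.7%. The share was higher with K+ than with Li+ for the cation-sensitive regions and close to equal for the others, as values of 1 library each over different sets of transcripts. In starved cells the share was higher than in unstressed cells for both sets, and the starved library listed more stops (24014417 against 12999691). At single sites, APP had 199 stops in the in vitro K+ library and 76 in the Li+ library (E of 45.5 and 13.2), and 21 in unstressed and 123 in starved cells (E of 8.11 and 94.3). TAF15 had 73 and 37 in vitro (E of 49.0 and 18.0) and 17 and 59 in cells (E of 16.1 and 64.7). NUCKS1 had 93 and 26 in vitro (E of 33.4 and 6.83) and 3 and 19 in cells (E of 1.91 and 6.72). CHD4 had 33 and 8 in vitro, was not listed in unstressed cells and had 5 in starved cells. At these 4 sites, chosen after their values were seen, E was higher in the K+ than in the Li+ library. In APP, TAF15 and NUCKS1 it was also higher in starved than in unstressed cells, while CHD4 had no value in the latter. At the CTSZ and CADM4 sites of the opposite direction at most 10 stops were counted in any DMS library.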

How the data were processed

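Of 6 libraries, the 2 without DMS were compared. The methods of the study state that SAMtools removed duplicate reads and that Bowtie placed the others on hg19 transcripts, uniquely and with no mismatch allowed. The authors deposited, for every nucleotide with at least 3 stops, its stop count and the ratio of that count to a mean. In the files this mean is taken over nucleotides of 1 base, not over the entire transcript as the methods describe. The latter was therefore recalculated with the base composition, and E is the count over it. Listed bases placed 2659 of 2759 transcripts (96.4%) on GENCODE release 44, GRCh37 (at least 97% identity over 80% of bases). With 1 library per condition a call is a fold, not a test. Shares have 95% Wilson intervals, medians order-statistic intervals, and count ratios exact Clopper-Pearson intervals, which cover counting error only. The methods mention molecular barcodes, and the files hold stops after removal of duplicates.

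Named were, in each direction, the 10 transcripts with most G regions, 5 with most per kb (at least 3 regions), 5 with the largest share of stops, up to 10 regions with the largest E ratio at 100 or more counts, the genes the study quantified after rG4 pull-down, and members of gene lists. Some named items are not reported here. Members, lists and rules were chosen with earlier results of these data known. The calculation was checked on simulated counts. In total 14 other settings were tried. After seeing the data 1 more was added, and transcripts were also ranked by regions with the counting interval above 2-fold. The software was matplotlib 3.10.9, scipy 1.17.1, pandas 2.3.3 and numpy 2.4.6 under Python 3.11.15.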

Additional observations from a re-analysis of the deposited data

How the results depend on the processing

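Of 142 values recalculated under 14 other settings and 1 more chosen after seeing the data, 70 stayed within 1.5-fold (counts) or the interval of the reported value, 72 moved and 0 reversed. Below, "Na+" and "K+" stand for stops or G regions higher in the library of that label. With an E of at least 5, stops numbered 23317 (Na+, 37.9% at G) and 21330 (K+), and G regions 5605 (on 66.4% of transcripts) and 4045. Their median distance was 252 nt, the median fold 3.20 and the difference in the log2 ratio of the flanks -0.058. With an E of at least 20, stops numbered 1731 (97.1% at G) and 79 (19.0% at G), and G regions 969 (25.0% of transcripts) and 12, with a distance of 549 nt, a fold of 27.6 and a flank difference of -0.30. A fold of at least 1.5 gave 1944 K+ stops, 71.9% of Na+ stops at G, 352 K+ regions, Na+ regions on 37.2% of transcripts, a median fold of 14.8 and a flank difference of -0.18. A fold of at least 4 gave 222 K+ stops (26.6% at G), 94.1% of Na+ stops at G, 43 K+ regions, Na+ regions on 32.9% of transcripts, a median fold of 19.4 and a flank difference of -0.31. With the mean of listed stops, these were 1826 K+ stops, 75.4% at G among Na+ stops, 379 K+ regions, 39.9% of transcripts and a fold of 13.3. With the deposited ratio to nucleotides of the same base, 75.4% of Na+ and 26.9% of K+ stops were at G, 275 K+ regions were called and the median fold was 15.2. Scaling by the median ratio put 84.9% of Na+ stops at G. A transcript minimum of 0.5 gave 7167 (71.1% at G) and 2940 stops, 2729 and 539 regions, 39.2% of transcripts, a fold of 11.6 and a flank difference of -0.15. A minimum of 3 gave 1124 (96.0% at G) and 73 stops (27.4% at G), 521 and 20 regions, 28.4% of transcripts, a fold of 24.8 and a flank difference of -0.37. With the counting interval above 2-fold, 71 K+ stops and 14 K+ regions were left, 98.1% of Na+ stops were at G, and the other values were 32.5%, 20.0-fold and -0.35. Merging within 10 nt gave a distance of 303 nt and a flank difference of -0.047. Without the transcripts whose mean was under 0.8 of the listed mean, added after seeing the data, there were 501 K+ stops, 89.4% of Na+ stops at G, 107 K+ regions, a fold of 18.5 and a flank difference of -0.30. The cause of these shifts was not tested, beyond the smaller or larger sets that the thresholds themselves define.

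No paired analysis was possible because each condition had 1 library and the labels give no replicate numbers. No library was left out, since each was the only one of its condition. Counts under 3 are not listed, which limits weak stops and large ratios.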
